A study of Mus musculus with 12 samples.

Results

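The 10 genes described here encode ligands of the tumour necrosis factor (TNF) superfamily: Cd70, Tnfsf9, Tnfsf4, Tnfsf18, Tnf, Lta, Ltb, Tnfsf10, Tnfsf13b and Tnfsf14. They were taken as a list of named genes out of the 19938 genes measured, each read from its brightest probe set with a single symbol, and all 10 were measured. The RNA came from cDC1 (type 1 conventional dendritic cells), a subset known for cross-presenting antigen to CD8 T cells. These were sorted from the spleen and, as migratory cells, from skin-draining lymph nodes of naive C57BL/6 mice, and were measured on 12 Affymetrix arrays. The sort took XCR1-positive, Sirpa-negative cells without B220, with high CD11c for the splenic and intermediate CD11c for the migratory cells. Every mouse was CD40 fl/fl, with loxP-flanked Cd40 on both alleles. The groups labelled control were Xcr1+/+, and the groups labelled Cre were Xcr1 Cre/+, which carry a Cre recombinase on 1 allele of the chemokine receptor gene Xcr1 to delete Cd40 in cDC1. Each tissue thus had a control group and a Cre group, giving 4 groups with 3 arrays in each. Ages were not among the labels used here, and nothing in the labels says whether the arrays of a group came from separate mice, so the p-values reflect the spread of these arrays alone, which may be technical.

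TNF superfamily ligands are mostly membrane-anchored proteins that assemble as trimers and cluster their receptors on the partner cell. On dendritic cells, CD70, 4-1BB ligand, OX40 ligand and GITR ligand carry costimulation to T cells, and several of them are known to be induced when CD40 on the dendritic cell is engaged by helper T cells. TNF and the lymphotoxins act in inflammation and in the upkeep of lymphoid tissue, TRAIL triggers death receptors, and BAFF keeps B cells alive.

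Median intensities per array ran from 66.1 to 74.4. The highest of 3 Y-linked genes averaged 19.5 over the arrays, and this intensity is used as the background below. It is a low line, with 89.3% to 93.4% of all genes above it on an array. Tnfsf4, Tnfsf18 in lymph node, Lta in spleen and Tnfsf13b in spleen control lay above it but below the array medians. Tnfsf14 (52.7 to 69.0), Lta in lymph node (57.8 to 84.8) and Tnfsf13b in the other groups (49.5 to 93.2) lay around these medians. Of the 8 cDC1 markers, 6 were lower in lymph node than in spleen in both genotype labels, and 1, Batf3, was higher in both. The summed intensity of the 8 lay between 23273 and 32562 in spleen and between 8041 and 9143 in lymph node. Xcr1 itself lay at 1945 to 3508 in spleen and 203 to 286 in lymph node. The migratory markers ran the other way, with 6 of 7 higher in lymph node. Of all genes, 13.2% were lower and 12.9% higher in control at a limma adjusted p under 0.05, and 15.2% and 13.1% in Cre. Cd40, the gene that the Cre should delete, did not follow the labels: relative to the control array of the same replicate number, the Cre array was at 0.638, 0.407 and 1.84 in spleen, and in lymph node at 0.668, 0.500 and 2.18, for replicates 1, 2 and 3. Replicate 3 thus ran opposite to the labels in both tissues, and genotype values are also given without it. No probe positions were used, and probes outside the deleted part would not report the deletion. Genotype below therefore means only what an array was labelled, and the sign of a genotype difference is that of the labels.

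Tissue separated 4 of the 10 ligands. In migratory lymph node cDC1, Cd70, Tnfsf9 and Lta were higher than in splenic cDC1 and Tnfsf18 was lower, in the arrays labelled control and again in the arrays labelled Cre. For these 4 genes, no lymph node array overlapped a spleen array of the same label. The other 6 ligands did not pass the test in either label. The count of 4 of 10 is to be read against 26.1% of all genes called between tissues in the control arrays and 28.3% in the Cre arrays by limma at an adjusted p under 0.05 (12.9% higher and 13.2% lower, and 13.1% higher and 15.2% lower). Groups that do not overlap between tissues were found for 36.3% of all genes in control (19% higher and 17.3% lower) and 41.1% in Cre (22.4% higher and 18.7% lower). The 4 of 10 members without overlap are thus near the share of all genes. The members' median log2 difference was 0.12 in control and 0.07 in Cre, beside 0.03 and 0.07 over all genes. Fewer transcribing cells and less RNA per cell cannot be told apart in such bulk samples. Summed intensities of markers of other cell types also differed between tissues. That of 7 B cell markers was 432 to 547 in spleen and 279 to 365 in lymph node. Only 1 of these 7 was called in each label, lower in lymph node. The sum of 7 T cell markers was 812 to 967 and 872 to 1801, and that of 5 macrophage and monocyte markers 317 to 452 and 221 to 249.9. Of the latter 5, 1 was called lower in control and 2 in Cre, and 0 higher. The 8 NK cell markers summed to 365 to 519.9 in spleen and 377 to 538 in lymph node, the 5 cDC2 markers to 217 to 335 and 234 to 269, the 5 plasmacytoid dendritic cell markers to 2070 to 2908 and 2648 to 3571, and the 4 Langerhans cell and keratinocyte markers to 350.3 to 646 and 282 to 389. Among these markers, Klra8 (NK cells, lymph node) and Clec4a4 (cDC2) were at or below background. Of the 7 T cell markers, 4 rose and 1 fell in control, and 5 rose and 2 fell in Cre. Markers within other lists also went both ways. For plasmacytoid dendritic cells 2 of 5 rose and 1 fell in control, and 1 rose and 1 fell in Cre. For Langerhans cells and keratinocytes 2 of 4 rose and 1 fell in each label, while their sum reached lower in lymph node. For NK cells 1 of 8 fell in control and 0 in Cre, and for cDC2 1 of 5 fell in each label. The part of these cell types in the ligand differences was not tested.

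**Figure D1:**
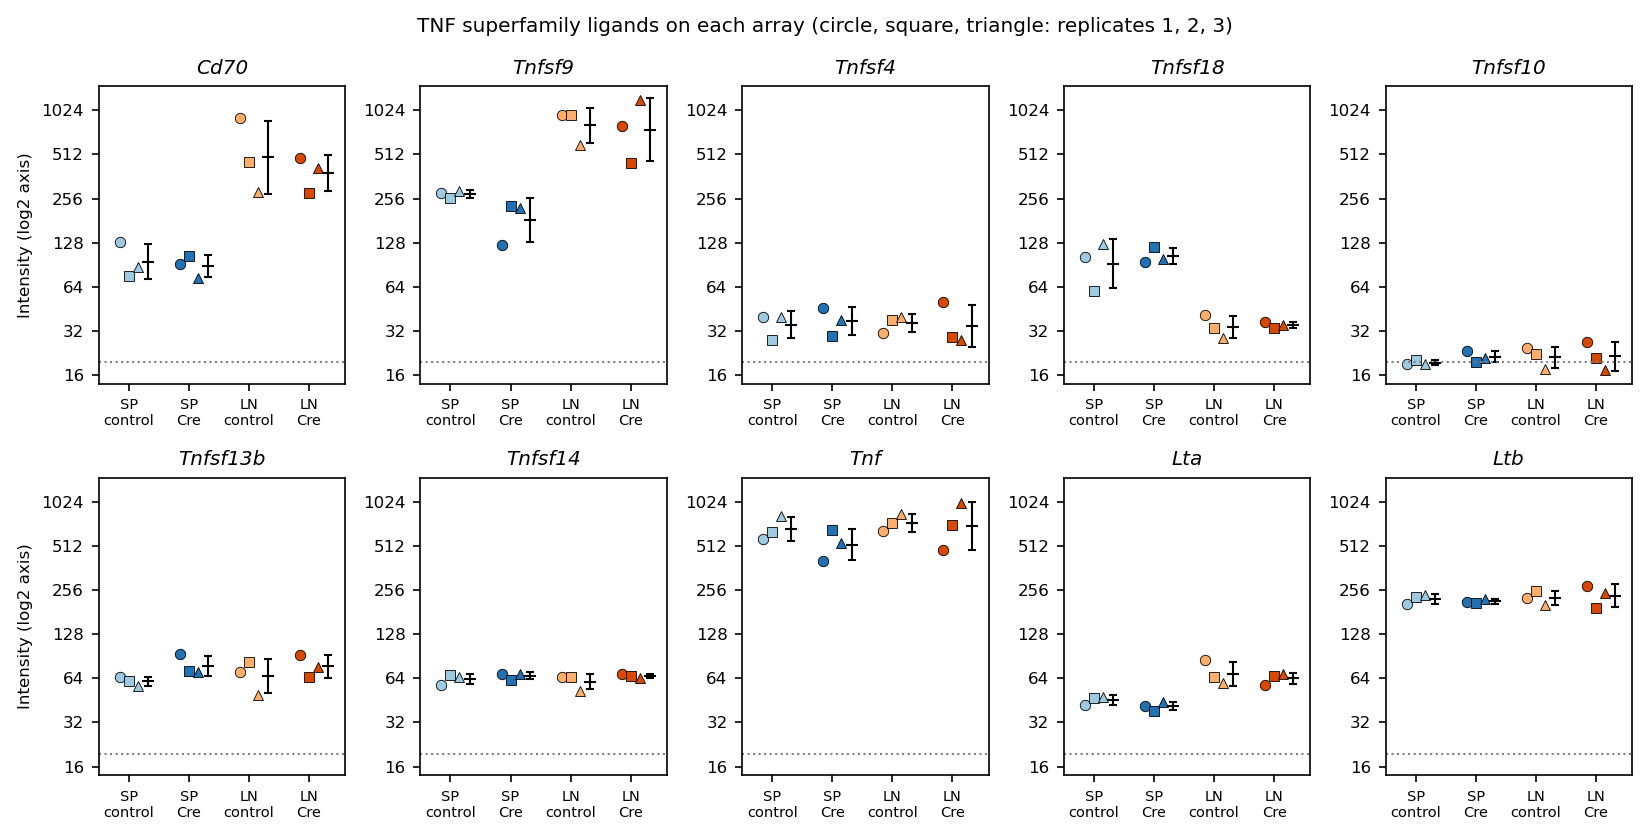
Intensity of each ligand on each of the 12 arrays, on a log2 axis shared by all panels. SP is spleen and LN lymph node; circles, squares and triangles are replicates 1, 2 and 3, the bars beside them are the mean and SD of the log2 values of 3 arrays, and the dotted line is the background of 19.5. Cd70, Tnfsf9 and Lta sit higher in lymph node and Tnfsf18 lower, while Tnfsf10 lies along the background line.

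Cd70 encodes the ligand of CD27, a costimulatory receptor of T cells. Its intensity (probe set 10452301) was 129.6, 75.7 and 87.3 on the spleen control arrays and 901, 453 and 285 on the lymph node control arrays. On the arrays labelled Cre it was 91.0, 104 and 73.7 in spleen, against 483, 280.4 and 414 in lymph node. Every lymph node array thus lay above every spleen array, with the lymph node control arrays the most spread. The rise was 5.14-fold in control (95% confidence interval 3.07 to 8.61, log2 difference 2.36, SE 0.35, n = 3 per group, limma adjusted p = 0.000122) and 4.31-fold in Cre (2.58 to 7.21, log2 difference 2.11, SE 0.35, n = 3 per group, limma adjusted p = 0.000315). By replicate number, the lymph node array was 6.96, 5.98 and 3.27 times its spleen counterpart in control and 5.30, 2.69 and 5.62 times in Cre.

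Tnfsf9 encodes 4-1BB ligand, which costimulates T cells through 4-1BB. Its intensity (probe set 10446229) was 281, 257 and 286 in spleen control and 949.6, 946 and 590.2 in lymph node control. In the arrays labelled Cre it was 123, 228 and 220.3 in spleen, against 795, 449 and 1209.9 in lymph node. The lymph node arrays were all above the spleen arrays, and the spread was narrow in spleen control and wide in both Cre groups. The rise was 2.95-fold in control (95% confidence interval 1.82 to 4.78, log2 difference 1.56, SE 0.32, n = 3 per group, limma adjusted p = 0.00216) and 4.12-fold in Cre (2.54 to 6.68, log2 difference 2.04, SE 0.32, n = 3 per group, limma adjusted p = 0.000248). Cd70 and Tnfsf9 are neighbours on chromosome 17, followed by Tnfsf14, and the protein-coding gene on the far side of Tnfsf9 is Tubb4a, a tubulin. The tissue difference of Tubb4a was 0.30 on the log2 scale in control (SE 0.09, n = 3 per group, limma adjusted p = 0.0321) and 0.01 in Cre (limma adjusted p = 0.966, n = 3 per group). These neighbours were looked up after the members' values were seen.

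**Figure D2:**
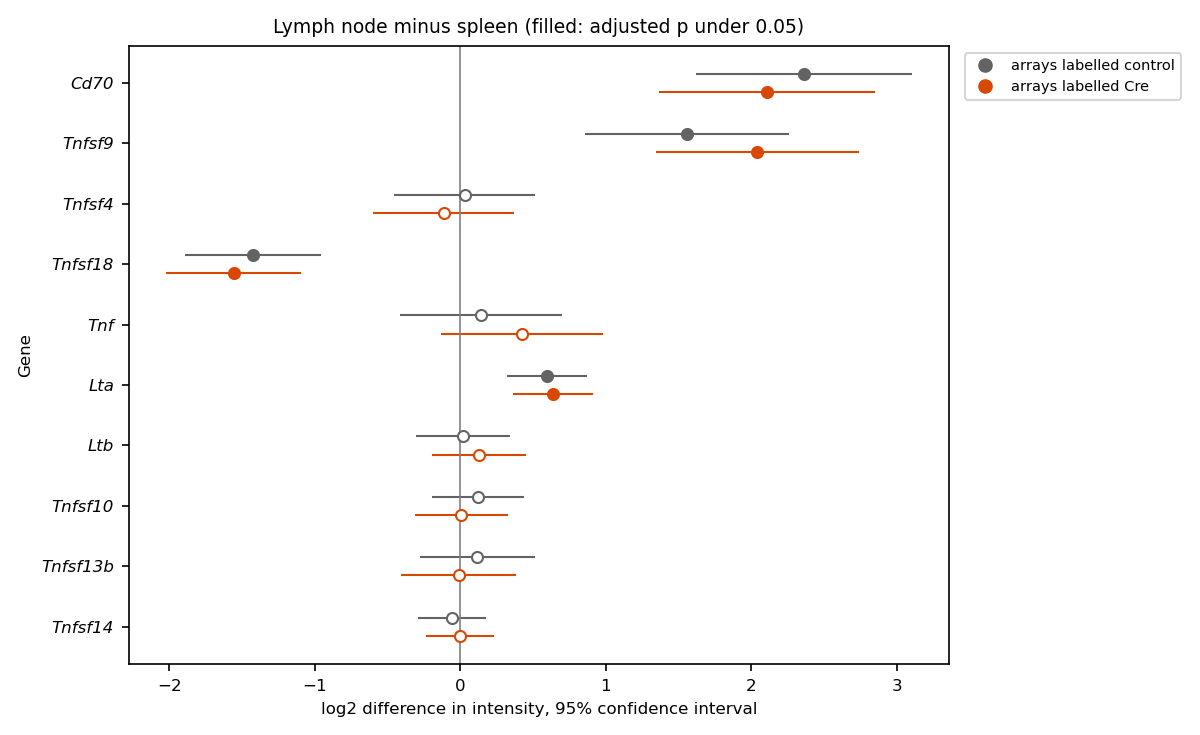
Log2 difference in intensity, lymph node minus spleen, for each ligand, with 95% confidence intervals from limma over 12 arrays; grey is the arrays labelled control and orange those labelled Cre. Filled points have an adjusted p under 0.05: Cd70, Tnfsf9 and Lta to the right of 0 and Tnfsf18 to the left, in both labels.

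Tnfsf18 encodes GITR ligand, which signals to regulatory and effector T cells through GITR. It was the only member that fell in lymph node. Its intensity (probe set 10351099) was 102, 59.7 and 126 in spleen control and 41.0, 33.6 and 28.8 in lymph node control. In the arrays labelled Cre it was 94.2, 119.6 and 98.4 in spleen, against 36.9, 33.4 and 35.3 in lymph node. Replicate 2 of spleen control was the lowest spleen array and still lay above all lymph node arrays. The lymph node level was 0.373 times the spleen level in control (95% confidence interval 0.270 to 0.514, log2 difference -1.42, SE 0.22, n = 3 per group, limma adjusted p = 0.000172) and 0.340 times in Cre (0.246 to 0.469, log2 difference -1.56, SE 0.22, n = 3 per group, limma adjusted p = 7.69e-05).

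Its neighbour on chromosome 1, Tnfsf4, encodes OX40 ligand, which sustains activated T cells. Tnfsf4 (probe set 10351095) was low in all groups, at 40.0, 27.7 and 39.9 in spleen control, 45.9, 29.6 and 37.9 in spleen Cre, 30.8, 38.1 and 40.1 in lymph node control and 50.5, 29.2 and 27.7 in lymph node Cre. The 4 groups overlapped. Its tissue difference was 0.03 in control (95% confidence interval -0.45 to 0.51, limma adjusted p = 0.958, n = 3 per group) and -0.11 in Cre (-0.60 to 0.37, limma adjusted p = 0.754, n = 3 per group), both on the log2 scale. Fasl, the death ligand gene on the other side of Tnfsf18, was at -0.01 in control (limma adjusted p = 0.972, n = 3 per group) and 0.22 in Cre (limma adjusted p = 0.0655, n = 3 per group). With the replicate block Fasl passed in Cre (limma adjusted p = 0.0357), and Tnfsf4 did not pass in either label.

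Tnf, Lta and Ltb lie side by side on chromosome 17 and encode TNF and the lymphotoxin alpha and beta chains. Their promoters are shown with that of Tnfsf18 because, of the members that RefSeq gave a promoter window for, Lta and Tnfsf18 were the ones that differed between tissues, in opposite directions, and Tnf and Ltb are the neighbours of Lta that did not pass. Each line is the 250 bases before the start site of the gene in RefSeq (build GRCm38.p6), read 5′ to 3′ on the gene's own strand. Capitals mark every base covered by a match, on either strand, to GGG and CC with any 5 bases between them, a pattern that includes many NF-kB sites, or to TGANTCA, the AP-1 pattern.
Tnfsf18, chr1:161494407-161494656, plus strand: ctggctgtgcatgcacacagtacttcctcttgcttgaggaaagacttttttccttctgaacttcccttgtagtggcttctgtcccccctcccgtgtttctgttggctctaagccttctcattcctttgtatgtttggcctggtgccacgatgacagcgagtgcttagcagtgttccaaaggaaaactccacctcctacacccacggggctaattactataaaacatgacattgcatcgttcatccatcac
Ltb, chr17:35194257-35194506, plus strand: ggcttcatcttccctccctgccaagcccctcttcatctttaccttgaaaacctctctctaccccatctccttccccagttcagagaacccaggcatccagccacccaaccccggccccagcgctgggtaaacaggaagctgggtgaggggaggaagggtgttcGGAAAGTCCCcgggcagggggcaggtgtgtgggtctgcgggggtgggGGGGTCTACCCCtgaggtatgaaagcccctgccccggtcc
Tnf, chr17:35202008-35202257, minus strand: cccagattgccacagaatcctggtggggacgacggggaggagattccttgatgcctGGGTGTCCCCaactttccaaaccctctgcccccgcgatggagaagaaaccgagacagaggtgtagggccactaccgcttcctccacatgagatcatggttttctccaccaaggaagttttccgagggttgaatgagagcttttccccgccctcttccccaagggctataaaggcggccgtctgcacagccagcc
Lta, chr17:35205352-35205601, minus strand: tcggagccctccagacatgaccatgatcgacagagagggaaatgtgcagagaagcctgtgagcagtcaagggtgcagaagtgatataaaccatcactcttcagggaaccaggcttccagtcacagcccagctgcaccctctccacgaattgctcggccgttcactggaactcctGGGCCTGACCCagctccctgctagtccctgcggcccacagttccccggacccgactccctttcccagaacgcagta

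The window of Lta held the first pattern between bases -76 and -66 from the start site, in 2 overlapping matches. That of Tnf held it at -194 to -185, on both strands at once. That of Ltb held it at -87 to -78 and, in overlapping matches, between -40 and -29, and that of Tnfsf18 held neither pattern, like that of Tnfsf10. The window of Tnfsf14 held both patterns, and TGANTCA was in 1 of 2 windows of Tnfsf13b. The first pattern was found in 45.8% of all 32851 windows of this length and TGANTCA in 6.75%, so a match to the first pattern is common. A match is only a run of letters, and its absence says only that the letters are not in this window. Windows were matched for 7 of the 10 members, not for Cd70, Tnfsf9 and Tnfsf4.

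Lta (probe set 10450508) was at 41.9, 47.3 and 47.5 in spleen control and 84.8, 64.8 and 59.2 in lymph node control. It was at 41.2, 38.6 and 43.8 in spleen Cre and 57.8, 66.0 and 68.3 in lymph node Cre. All 6 lymph node arrays were above all 6 spleen arrays, by a small margin. The rise was 1.51-fold in control (95% confidence interval 1.25 to 1.83, log2 difference 0.60, SE 0.13, n = 3 per group, limma adjusted p = 0.00266) and 1.55-fold in Cre (1.28 to 1.88, log2 difference 0.64, SE 0.13, n = 3 per group, limma adjusted p = 0.00165). Without the replicate 1 arrays of all groups, the control difference was 0.39 and still passed, and without those of replicate 2 the Cre difference was 0.57 and no longer passed (limma adjusted p = 0.0776). Lta is also transcribed by T cells, and the T cell marker sums given above reached higher in lymph node; their part in this rise was not tested.

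Tnf (probe set 10450501) was at 568, 636 and 820.2 in spleen control, 404, 654 and 534 in spleen Cre, 644, 729 and 850.0 in lymph node control and 478, 709.5 and 1010.1 in lymph node Cre. The tissues overlapped in both labels. Its tissue difference on the log2 scale was 0.14 in control (95% confidence interval -0.41 to 0.70, limma adjusted p = 0.794, n = 3 per group) and 0.43 in Cre (-0.13 to 0.98, limma adjusted p = 0.258, n = 3 per group). With the replicate number as a block the Cre difference passed (limma adjusted p = 0.0364, 0.43 on the log2 scale, higher in lymph node for 3 of 3 numbers), and so did the difference averaged over both labels (0.28, limma adjusted p = 0.257 without and 0.0408 with the block). The Cre difference passed as well when lymph node Cre replicate 1 was left out (0.70, limma adjusted p = 0.0449) and when all replicate 1 arrays were (0.52, limma adjusted p = 0.0355).

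Ltb (probe set 10444752), whose product anchors lymphotoxin to the membrane, was at 205, 231 and 238 in spleen control, 212, 208 and 222 in spleen Cre, 226, 253 and 204 in lymph node control and 274, 193 and 243 in lymph node Cre. The 4 groups overlapped. The log2 tissue difference was 0.02 in control (95% confidence interval -0.31 to 0.34, limma adjusted p = 0.961, n = 3 per group) and 0.13 in Cre (-0.20 to 0.45, limma adjusted p = 0.574, n = 3 per group).

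The remaining ligands signal to death receptors, B cells and the herpesvirus entry mediator, and none of them passed between tissues. Tnfsf10, which encodes TRAIL, was at the background: it lay above 19.5 on 1 of 3 control and 3 of 3 Cre arrays in spleen, and on 2 of 3 arrays of either label in lymph node. Its values ran from 17.3 to 27.0, so no difference could be read. Tnfsf13b, which encodes BAFF (probe set 10570018), was at 65.6, 60.9 and 56.7 in spleen control and 71.0, 82.6 and 49.5 in lymph node control. In the arrays labelled Cre it was at 93.2, 71.2 and 70.9 in spleen, against 92.8, 65.1 and 76.3 in lymph node. Tissues overlapped in both labels, with log2 differences of 0.12 (95% confidence interval -0.28 to 0.51, n = 3 per group, limma adjusted p = 0.753) and -0.01 (-0.40 to 0.38, n = 3 per group, limma adjusted p = 0.975). Tnfsf14, which encodes LIGHT (probe set 10452307), varied least, from 52.7 to 69.0 over all arrays. Its log2 tissue difference was -0.06 in control (95% confidence interval -0.29 to 0.18, limma adjusted p = 0.809, n = 3 per group) and -0.002 in Cre (-0.23 to 0.23, limma adjusted p = 0.992, n = 3 per group). It is the next protein-coding gene after Cd70 on chromosome 17, and the interval of its difference lies wholly below that of Cd70 in both labels. Past Tnfsf14 and C3, which was not measured, lies Trip10. Trip10 rose 2.15-fold in control (limma adjusted p = 0.000279, n = 3 per group) and 1.96-fold in Cre (limma adjusted p = 0.000769, n = 3 per group). On the other side, Dennd1c, the gene beyond Tubb4a, did not pass in either label.

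Receptors of these ligands were called in both directions between tissues. Of 12 measured receptors, 6 rose and 1 fell in the control arrays, and 6 rose and 2 fell in the Cre arrays, beside the 26.1% and 28.3% of all genes called. Their median log2 difference was 0.38 and 0.41, beside 0.03 and 0.07 over all genes. T cells are known to carry OX40, 4-1BB, GITR and CD27. T cell markers went both ways in the same comparison, with 4 of 7 higher in lymph node and 1 lower in control. Cd3g was 3.41-fold and Cd3d 2.43-fold higher in lymph node in control (limma adjusted p = 0.0110 and 0.0230, n = 3 per group). Cd5 was at 0.533 times the spleen level (limma adjusted p = 0.00265, n = 3 per group). The part of T cell RNA in the receptor differences was not tested. Tnfrsf4, the OX40 receptor, was at 644, 450.3 and 385 in spleen control and 6247, 5176 and 6769 in lymph node control, a 12.5-fold rise (limma adjusted p = 1.34e-07, n = 3 per group), and rose 15.9-fold in Cre (limma adjusted p = 5.71e-08, n = 3 per group). Tnfrsf9, the receptor 4-1BB, went from 153, 142 and 133 to 1016, 934 and 1645 in control, an 8.13-fold rise (limma adjusted p = 1.49e-07, n = 3 per group), and rose 9.98-fold in Cre (limma adjusted p = 6.11e-08, n = 3 per group). For the 4-1BB pair, ligand and receptor transcripts were thus both higher in lymph node, while for OX40 the receptor was higher and the ligand did not pass.

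The TNF receptors moved in opposite directions. Tnfrsf1a, the broadly expressed receptor TNFR1, was at 2088, 2307 and 2221 in spleen control and 593, 435 and 497 in lymph node control, 0.229 times the spleen level (limma adjusted p = 1.45e-07, n = 3 per group), and was at 0.236 times in Cre (limma adjusted p = 1.61e-07, n = 3 per group). Tnfrsf1b, TNFR2, was at 738, 762 and 701 in spleen control and 1902, 2804 and 3051 in lymph node control, a rise of 3.46-fold (limma adjusted p = 2.68e-05, n = 3 per group), with 3.43-fold in Cre (limma adjusted p = 2.74e-05, n = 3 per group). The other receptors that rose in both labels were Tnfrsf18 (GITR), Tnfrsf10b (the TRAIL receptor) and Cd27, by 1.58, 1.56 and 0.68 on the log2 scale in control. Tnfrsf18 and its ligand gene therefore differed between tissues in opposite directions. Ltbr, the lymphotoxin beta receptor, was at -0.41 on the log2 scale in control (limma adjusted p = 0.0786, n = 3 per group) and fell by 0.70 in Cre (limma adjusted p = 0.00398, n = 3 per group); with the replicate block the control difference passed too (limma adjusted p = 0.00709). The BAFF receptors Tnfrsf13b, Tnfrsf13c and Tnfrsf17 and the LIGHT receptor Tnfrsf14 did not pass in either label.

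**Figure D3:**
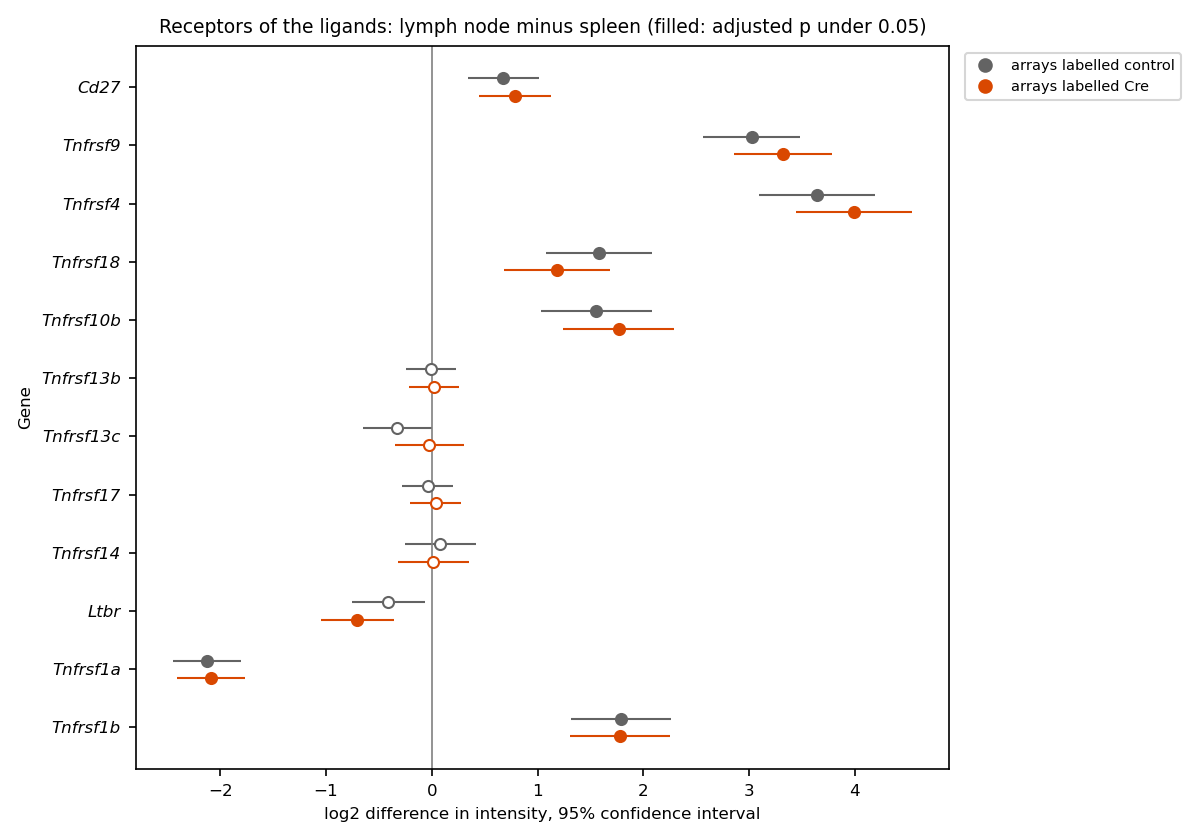
Log2 difference in intensity, lymph node minus spleen, of 12 receptors of the ligands, with 95% confidence intervals from limma; grey is the arrays labelled control and orange those labelled Cre. Filled points have an adjusted p under 0.05; Tnfrsf4 and Tnfrsf9 lie farthest to the right and Tnfrsf1a farthest to the left.

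Other ligands of the superfamily were measured as well. Of 6 measured (Tnfsf8, Tnfsf11, Tnfsf15, Fasl, Cd40lg and Eda), Eda, the ectodysplasin gene, fell by 0.57 on the log2 scale in control (SE 0.16, limma adjusted p = 0.0192, n = 3 per group) and was at -0.13 in Cre (limma adjusted p = 0.598, n = 3 per group); the others did not pass in either label, apart from Fasl in Cre with the replicate block. Among 7 genes that cleave or help to cleave membrane-bound ligands, 2 rose and 2 fell in control and 1 rose and 1 fell in Cre, beside 26.1% and 28.3% of all genes called, so the Cre count is at the background share. With the replicate block 3 rose and 2 fell in control and 2 rose and 3 fell in Cre, where limma called 7178 and 8170 of the 19938 genes. Adam17, the sheddase that frees TNF from the membrane, was at 0.484 times the spleen level in control (limma adjusted p = 0.0116, n = 3 per group) and 0.416 times in Cre (limma adjusted p = 0.00316, n = 3 per group). Rhbdf1, a rhomboid-like cofactor of ADAM17, rose 2.05-fold in control (limma adjusted p = 6.77e-06, n = 3 per group) and 1.63-fold in Cre (limma adjusted p = 0.000205, n = 3 per group). Sppl2a, an intramembrane protease that processes TNF stubs, rose by 0.95 in control (limma adjusted p = 0.0252) and was at 0.42 in Cre (0.317, or 0.00528 with the block), and Furin, the proprotein convertase, fell by 0.82 in control (0.0336) and was at -0.53 in Cre (0.161, or 0.00474 with the block), on the log2 scale.

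Of 6 genes that destabilise Tnf mRNA, 1 rose and 1 fell in each label, beside 26.1% and 28.3% of all genes called. With the replicate block 2 rose and 2 fell in control and 3 rose and 3 fell in Cre, where limma called 7178 and 8170 of the 19938 genes. Zfp36l1 rose 2.03-fold in control (limma adjusted p = 0.000101, n = 3 per group) and 2.03-fold in Cre (limma adjusted p = 0.000102, n = 3 per group), and its paralog Zfp36l2 was at 0.309 times in control (limma adjusted p = 0.00115, n = 3 per group) and 0.231 times in Cre (limma adjusted p = 0.000185, n = 3 per group). Averaged over both labels, 3 of the 6 rose and 2 fell, where 37% of all genes were called (18.6% higher and 18.3% lower). Beyond the Zfp36l1 and Zfp36l2 pair these included Zc3h12a (Regnase-1) at 0.44 (limma adjusted p = 0.0239) and Rc3h1 (Roquin-1) at -0.44 (limma adjusted p = 0.0481) on the log2 scale.

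Between the genotype labels, no ligand passed the test. Limma called 0 of 19938 genes (0% of all genes) in spleen and in lymph node, with 357 and 402 at an unadjusted p under 0.05, and no member was among these. With the replicate number as a block it again called 0 genes in either tissue, but 886 and 1360 genes had an unadjusted p under 0.05. Among these were 2 members in spleen, Tnf (unadjusted p = 0.0336 by limma) and Tnfsf13b (unadjusted p = 0.0320 by limma), both with an adjusted p of 0.983, and none in lymph node. Adjusted p-values of the members by limma ran from 0.9997 to 0.9998 without the block and from 0.816 to 0.992 with it. In spleen, 2 of the 10 members had groups that did not overlap, beside 7.64% of all genes (2.68% higher and 4.96% lower): Tnfsf9, lower on the arrays labelled Cre, and Tnfsf13b, higher. In lymph node 0 of 10 did, beside 4.72% of all genes (2.01% higher and 2.71% lower). The median log2 difference of the members was 0.005 in spleen and -0.02 in lymph node, beside -0.01 and -0.01 over all genes.

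Tnfsf9 had the lowest difference in spleen. From the values given above, the spleen Cre arrays (123, 228 and 220.3) all lay below the control arrays (281, 257 and 286), with ratios of 0.439, 0.884 and 0.770 by replicate number. The log2 difference was -0.58 (95% confidence interval -1.28 to 0.12, unadjusted p = 0.0962 by limma, n = 3 per group). In lymph node the ratios were 0.837, 0.475 and 2.05, with a log2 difference of -0.10 (95% confidence interval -0.80 to 0.60, n = 3 per group). Tnfsf13b was at 0.35 in spleen (95% confidence interval -0.04 to 0.75, unadjusted p = 0.0768 by limma, n = 3 per group) and 0.22 in lymph node (-0.17 to 0.62, n = 3 per group). Averaged over both tissues it was at 0.29 (SE 0.13, unadjusted p = 0.0447 by limma over 12 arrays), the 1 member under 0.05 before adjustment, with an adjusted p of 1.

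Cd70, a gene known to be induced through CD40, had a log2 difference of -0.10 in spleen (95% confidence interval -0.84 to 0.65, n = 3 per group) and -0.35 in lymph node (-1.09 to 0.39, n = 3 per group). Its ratios by replicate number were 0.703, 1.38 and 0.845 in spleen, against 0.536, 0.619 and 1.45 in lymph node. Tnf was at -0.36 in spleen (95% confidence interval -0.91 to 0.20, n = 3 per group) and -0.07 in lymph node (-0.63 to 0.48, n = 3 per group). The intervals of these genes are wide enough to hold a lowering of more than 1.5 times as well as no change. Lta was at -0.15 and -0.11, Ltb at -0.07 and 0.05, Tnfsf18 at 0.18 and 0.04, Tnfsf4 at 0.07 and -0.07, Tnfsf14 at 0.08 and 0.13 and Tnfsf10 at 0.13 and 0.02 in spleen and lymph node. The difference of the genotype effect between tissues was also tested, and limma called 0 of 19938 genes while 326 genes had an unadjusted p under 0.05, none of them a member. Without the replicate 3 arrays, where Cd40 ran opposite to the labels, the lymph node difference was -0.80 for Cd70 and -0.67 for Tnfsf9, from -0.35 and -0.10 with them. In spleen Tnfsf9 was then at -0.68, Tnfsf18 at 0.44 and Tnfsf13b at 0.37. In lymph node Tnfsf13b was at 0.02, Tnf at -0.24 and Lta at -0.26. No member passed without these arrays (limma adjusted p of 1.0 in spleen and 0.9999 in lymph node, 2 arrays per group), and the order of the members by size therefore depends on them.

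**Figure D4:**
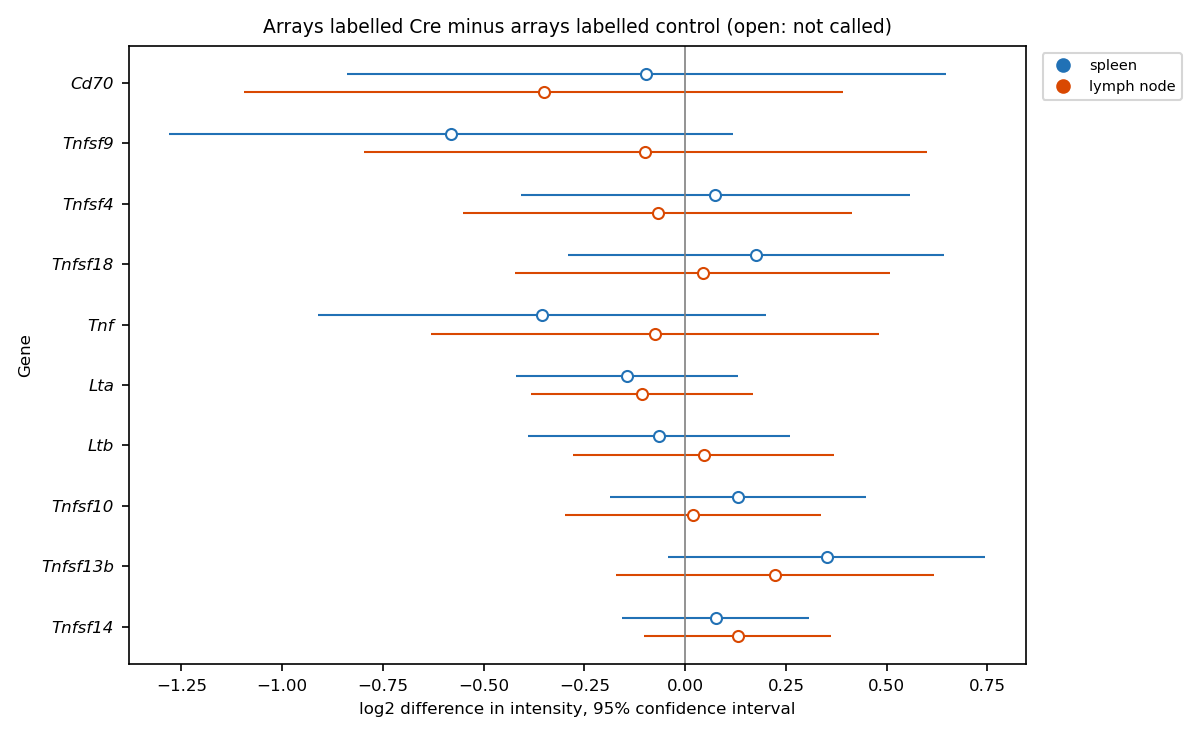
Log2 difference in intensity, arrays labelled Cre minus arrays labelled control, for each ligand in spleen (blue) and lymph node (orange), with 95% confidence intervals from limma over 12 arrays. No difference was called and every interval includes 0; With all arrays, Tnfsf9 in spleen lies lowest, at -0.58, and Tnfsf13b in spleen highest, at 0.35; without the replicate 3 arrays, Cd70 in lymph node is lowest, at -0.80, and Tnfsf18 in spleen highest, at 0.44.

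Since Cd40 did not follow the labels, each ligand was also set against the Cd40 level over the 6 arrays of a tissue, a comparison chosen after the values were seen. Of 20 relations, 10 ligands in 2 tissues, none passed after Benjamini-Hochberg adjustment. The closest was Tnfsf9 in lymph node, where Pearson's r was 0.850 (exact permutation p = 0.0167, adjusted 0.333) and Spearman's rho 0.886 (exact permutation p = 0.0333, adjusted 0.667) over 6 arrays. Without the 2 arrays farthest from the median Cd40 level, r was 0.726 over 4 arrays. For each of the 3 replicate numbers, Tnfsf9 was higher on the same array of the lymph node pair as Cd40, and r was 0.977 once the means of the replicate numbers were removed, which leaves 3 independent differences. Treated the same way, the lymph node arrays gave 0.899 for Cd70, 0.801 for Tnfsf18, 0.707 for Tnf, -0.405 for Tnfsf4 and -0.134 for Tnfsf10. The other ligands lay between 0.526 and 0.627 there. The spleen arrays gave 0.312 for Tnfsf9, -0.846 for Tnfsf18 and -0.804 for Tnfsf4. Without this removal, Tnfsf9 in spleen had an r of 0.152 (exact permutation p = 0.758, adjusted 0.939) and a rho of 0.029 (exact permutation p = 1). Its r was 0.941 over the 4 spleen arrays left without the 2 farthest from the median Cd40 level. Cd70 in lymph node had an r of 0.340 (exact permutation p = 0.581, adjusted 0.939) and a rho of 0.314 (exact permutation p = 0.564), and Tnf an r of 0.575 (exact permutation p = 0.222, adjusted 0.939) and a rho of 0.600 (exact permutation p = 0.242). Without the 2 farthest arrays these r values were 0.842 and 0.073, over 4 arrays each. Both were higher on the same array of the pair as Cd40 for 3 of 3 numbers in lymph node and for 1 of 3 in spleen; Tnfsf18 also was for 3 of 3 in lymph node.

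**Figure D5:**
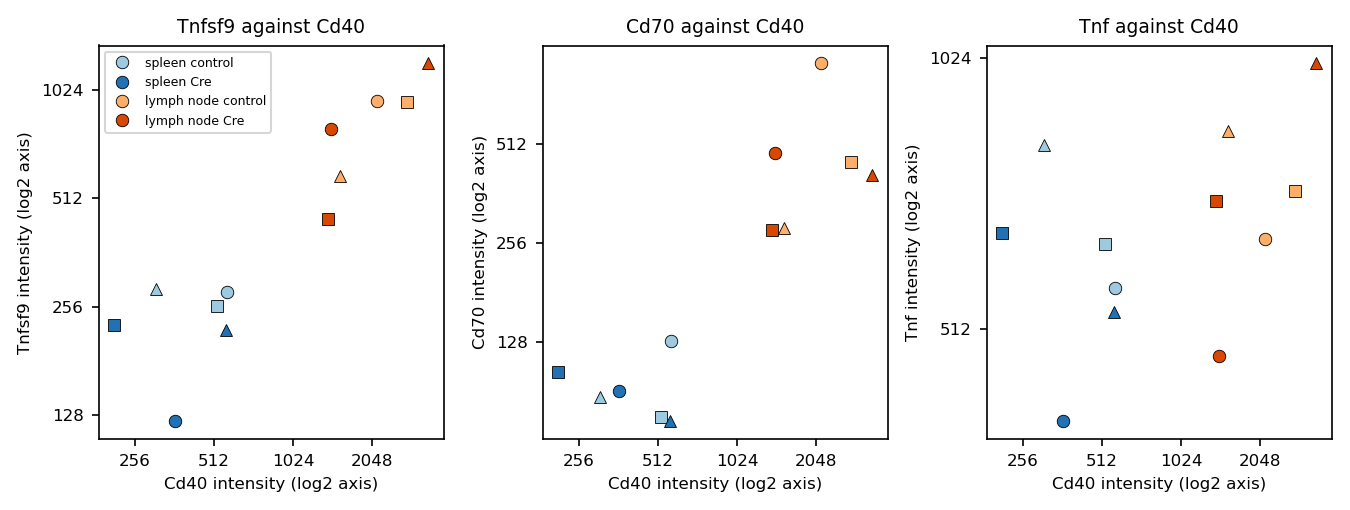
Intensity of Tnfsf9, Cd70 and Tnf (vertical axes) against that of Cd40 (horizontal axis) on the 12 arrays, all axes on a log2 scale; circles, squares and triangles are replicates 1, 2 and 3. The spleen and lymph node arrays form separate clusters along the Cd40 axis, and within the lymph node arrays Tnfsf9 has an r of 0.850 with Cd40 over 6 arrays.

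The genes whose levels ran most like each ligand were found by the root mean square distance between log2 profiles over the 12 arrays, each profile minus its own mean, among 18482 genes above background in at least 1 group. For Cd70, whose own profile spread by 1.20, the nearest were Calm5 at 0.233, Nupr1 at 0.251 and Ccl19, a chemokine ligand of CCR7, at 0.325. For Tnfsf9, with a spread of 1.0, they were Serpinb6b at 0.372, Pdgfa at 0.399 and Cd200, an inhibitory membrane ligand, at 0.399. For Tnfsf18, with a spread of 0.793, they were Cd7 at 0.152, Nmral1 at 0.187 and Cnp at 0.215. For Lta, with a spread of 0.342, they were Rilp at 0.108, 2210016L21Rik at 0.112 and Haus5 at 0.117. Ligands that did not pass between tissues had profiles with spreads of 0.109 to 0.353, and their nearest genes were Gadd45g, Chpt1 and Smim15 for Tnfsf4, Inpp5f, Atxn7l3 and Dock6 for Tnf, Dmxl2, Alppl2 and Hdgfl3 for Ltb, Gstm3, Pde4d and Tctex1d1 for Tnfsf13b, F10, Nags and Misp3 for Tnfsf14 and, at background, Olfml1, Defb1 and Ptgfr for Tnfsf10.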

How the data were processed

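The 12 arrays gave 1 intensity per probe set, which per the submitters' processing notes came from RMA and the Affymetrix Expression Console (version and build not given in the sources used here). Values ran from 8.23 to 20398, so these deposited intensities were read as linear and log2 was taken before any test. RMA equalises the arrays' distributions, and it compresses differences near background. Scanner files were not used here, so another background correction was not tried. Of 28853 probe sets, 21789 had a single symbol in the platform annotation (1621 had several), and the brightest per gene left 19938 genes; symbols were updated by Entrez number through RefSeq (21698 matched).

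Each gene was fitted with 4 group means in limma 3.58.1 (R 4.3.3), eBayes with trend, two-sided, Benjamini-Hochberg adjustment over all genes, called under 0.05; the script was tested on simulated data. Intervals are 95%. This main fit left out the labels' replicate numbers, so its intervals and calls take no account of a pairing. An alternative fit used the numbers as a block. It called 7178 genes between tissues in control and 8170 in Cre, against 5207 and 5648. Between arrays of the same number, deviations from group means correlated across genes at r of 0.573 to 0.729, 0.309 to 0.449 and 0.293 to 0.466 for numbers 1, 2 and 3, all over 0.1. However, numbers 2 and 3 also correlated with each other (0.177 to 0.557).

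Alternatives were a replicate block, eBayes without trend, quantile normalization, a filter on dim genes, mean probe sets, array weights, and arrays left out. The members and the gene lists were chosen with earlier results of these data known. All members were named, with up to 4 called genes of each list by size of the averaged tissue difference, Cd40 and Xcr1, and the 3 nearest profiles per ligand; the neighbouring genes were chosen after values were seen. Each ligand had 1 probe set, and Y-linked genes gave the background. Promoters came from RefSeq (GRCm38.p6). Plots used matplotlib 3.10.9 (Python 3.11.15).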

Additional observations from a re-analysis of the deposited data

How the results depend on the processing

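Over 21 alternatives, Cd70, Tnfsf9 and Tnfsf18 kept their direction and call between tissues in both labels. Lta kept its direction, and was lost once, in Cre without all replicate 2 arrays. The number of members called between tissues was 4, with 3 to 5 over the alternatives: 5 in Cre with the replicate block, where Tnf passed, and 5 in both labels with array weights, through Tnf in Cre (0.61, limma adjusted p = 0.00950) and Tnfsf13b in control (0.38, limma adjusted p = 0.0137). The block also made Tnf pass in the tissue difference averaged over both labels (5 members, from 4) and changed no other call of a member. Genes called between tissues were 9020 in control and 8933 in Cre with array weights, against 5207 and 5648, and 2865 to 6906 and 3081 to 7684 with arrays left out, lowest without all replicate 3 arrays in control (2865) and without all replicate 2 arrays in Cre (3081). With array weights limma also called 51 genes between genotype labels in spleen, 2 in lymph node and 3 for the difference between tissues, with 0 members among them. The cause of these shifts was not tested.

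Of 41 member differences followed, 21 changed sign under some alternative, and none of these was called in either setting. Between tissues in control, leaving arrays out gave log2 ranges of -0.18 to 0.23 for Tnfsf4, -0.042 to 0.33 for Tnfsf13b, -0.17 to 0.068 for Tnfsf14 and -0.061 to 0.14 for Ltb. In Cre the ranges were -0.39 to 0.057 for Tnfsf4, -0.16 to 0.16 for Tnfsf10, -0.14 to 0.12 for Tnfsf13b and -0.051 to 0.047 for Tnfsf14. For genotype in spleen they were -0.38 to 0.13 for Cd70, -0.10 to 0.24 for Tnfsf4, -0.24 to 0.44 for Tnfsf18 and -0.011 to 0.17 for Tnfsf14. For genotype in lymph node they were -0.80 to 0.091 for Cd70, -0.67 to 0.39 for Tnfsf9, -0.46 to 0.16 for Tnfsf4, -0.080 to 0.18 for Tnfsf18, -0.15 to 0.17 for Tnfsf10, -0.34 to 0.20 for Tnf, -0.26 to 0.12 for Lta and -0.071 to 0.27 for Ltb. Quantile normalization turned Tnfsf4 between tissues in control (-0.0042) and Tnfsf10 between tissues in Cre (-0.080) and between genotypes in lymph node (-0.012). Array weights turned Tnfsf10 (-0.11) and Tnfsf13b (0.035) between tissues in Cre, Cd70 between genotypes in spleen (0.0036), and Tnfsf10 (-0.19), Tnfsf13b (-0.088), Tnf (0.21), Lta (0.038) and Ltb (-0.12) between genotypes in lymph node. With 3 arrays a group, and Tnfsf10 at background, differences of these sizes could not be resolved.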
